A study of Mus musculus with 9 samples.

Results

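The genes described here are 36 imprinted genes of the mouse, chosen by symbol from the known imprinted clusters, out of 25611 rows of a count table of islet RNA. Where a symbol filled several rows, the first was taken. They fall into 14 clusters on 8 chromosomes. By common annotation 15 are expressed mainly from the maternal allele and 21 from the paternal allele, and 6 of the 36 make noncoding RNA. The gene Gnas, which is also imprinted, was left out. RNA sequencing was done on hand-picked pancreatic islets of 4-week-old mice. The tested mice, labelled knockout, were Pdx1-Cre;Glis3fl/fl (3 libraries), and the controls were Glis3fl/fl (4 libraries), so both groups carried the floxed allele of Glis3, a zinc finger transcription factor of the pancreas. Pdx1-Cre drives recombination in the pancreatic lineage. Islet preparations also hold exocrine cells of this lineage, as well as vessels and stroma that this driver may not reach. Mice with Pdx1-Cre alone were not among the groups, so what the Cre line does by itself and what the deletion does cannot be told apart. Glis3 binding came from 1 chromatin immunoprecipitation of islets of 8-week-old Glis3-eGFP mice with an antibody against GFP. It had no replicate.

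An imprinted gene is transcribed from only one parental copy, because a control region in its cluster was methylated in the germ line of one parent and not of the other. The clusters often pair a protein that promotes or restrains growth with a long noncoding RNA made from the opposite parental copy. In the pancreas, imprinted genes are known for their part in beta cell growth and insulin production, and human Plagl1 and Dlk1-Meg3 are among the imprinted loci linked to diabetes. The counts analysed here sum both alleles, so which parental copy a transcript came from was not measured.

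Total counts were 12099365 to 22578480 per labelled knockout library and 18297697 to 48054551 per control library. Levels are CPM, counts scaled by TMM factors to 1000000 per library, and are compared between libraries for one gene, not between genes. Glis3 itself was not lower in the labelled knockout. It had 52.1, 52.7 and 57.8 CPM in labelled knockout islets, against 39.5, 46.8, 31.2 and 33.6 CPM in control islets, a log2 fold change of 0.52 (SE 0.14, edgeR adjusted p = 0.0257; with the replicate number as a block 0.0505, in a range of 0.00948 to 0.372 over 17 alternatives). These counts cover the whole gene, and whether the deleted part enters them is not given in the sources used here. Markers of beta, alpha and delta cells were present in every library. The summed level of 8 beta cell markers was 189026 to 299292 CPM in labelled knockout islets and 329303 to 550348 CPM in control islets. Ins1, Ins2 and Iapp made up most of this sum. Ins1 averaged 52149 CPM in labelled knockout islets and 128563 CPM in control islets, and Ins2 90319 and 272484 CPM. Iapp went the other way, at 85883 and 23991 CPM. In whole islets, fewer cells of a type and less RNA per cell cannot be told apart. The libraries also fell into those with Xist reads and those with almost none. Labelled knockout replicates 1 and 2 held 3530 and 5430 Xist counts and replicate 3 held 5, while controls 1 and 2 held 7752 and 12409 and controls 3 and 4 held 7 each.

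Of the 36 imprinted genes, 29 had counts high enough to be tested and 7 did not. Among the 29, 6 rose in labelled knockout islets and 1 fell at an edgeR adjusted p under 0.05, and 22 did not pass. The genes that rose were Meg3, Mirg, Dlk1, H19, Nnat and Ndn, and the gene that fell was Grb10. With the replicate number as a block, H19 was no longer called (edgeR adjusted p = 0.0756), Asb4 was added to those that rose (0.0418) and Peg3 to those that fell (0.00203). DESeq2, or edgeR without control 3, added Cdkn1c to those that fell. Over all 14529 tested genes, 8.73% were called higher and 5.25% lower, 14.0% in either direction. The shares among the tested imprinted genes were 20.7% higher and 3.45% lower. This difference in shares was not tested, and the genes were chosen with earlier results of these data known. The median log2 fold change was 0.19 over the tested imprinted genes, from -1.14 to 3.67, against 0.0065 over all tested genes, and 18 of the 29 values were above 0. The summed level of all 36 genes was 2503, 2826 and 3063 CPM in labelled knockout islets, against 1720, 2024, 1782 and 1771 CPM in control islets. All 3 sums of the labelled knockout lay above all 4 of the control. Without Meg3 and Nnat the sums overlapped, at 1049.7 to 1129 CPM in labelled knockout islets and 857 to 1065 CPM in control islets.

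**Figure D1:**
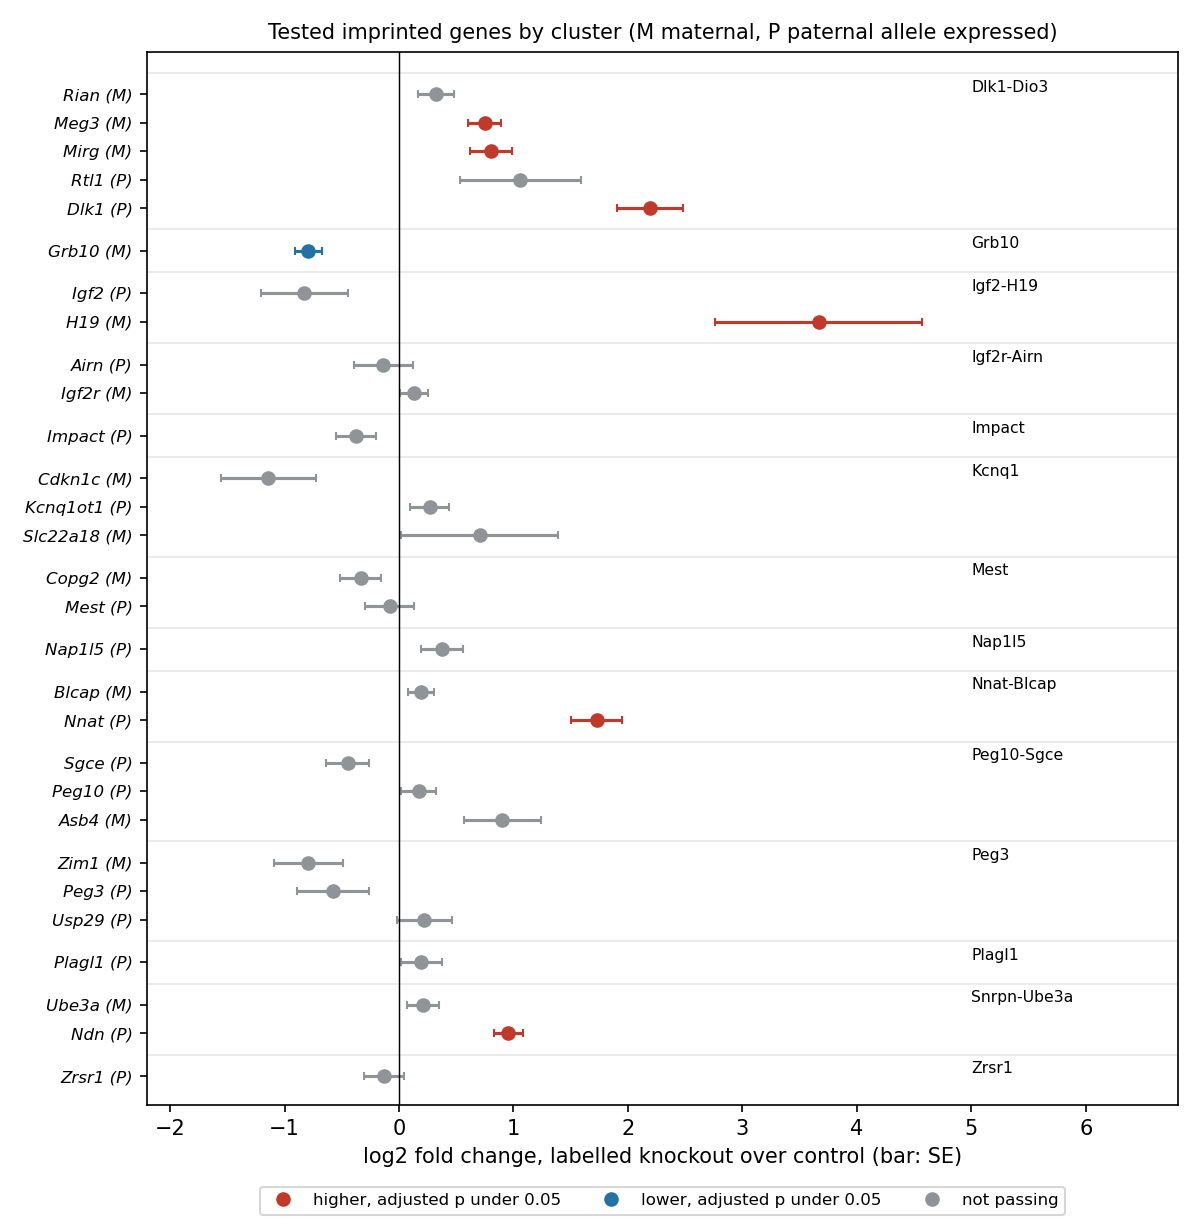
Log2 fold change, labelled knockout over control (x axis), of the 29 tested imprinted genes, grouped by cluster, with the edgeR SE as bars. M and P mark the allele expressed by common annotation. The 6 genes in red and 1 in blue passed an adjusted p under 0.05, and the Dlk1-Dio3 cluster has no value below 0.

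The genes that rose came from both parental classes. Of 13 tested maternally expressed genes, 3 rose (Meg3, Mirg and H19) and 1 fell (Grb10), with a median log2 fold change of 0.21. Of 16 tested paternally expressed genes, 3 rose (Dlk1, Nnat and Ndn) and 0 fell, with a median of 0.18. The maternally expressed genes summed to 1658 to 1922 CPM in labelled knockout islets and 1150 to 1365 CPM in control islets. The paternally expressed genes summed to 845 to 1141 CPM in labelled knockout islets and 515 to 659 CPM in control islets. In both classes the libraries of the groups did not overlap. Without Meg3 the maternally expressed genes summed to 581 to 634 CPM in labelled knockout islets and 473 to 620.0 CPM in control islets, which overlapped. Without Nnat the paternally expressed genes summed to 468 to 496 CPM in labelled knockout islets and 378 to 452 CPM in control islets, which did not. That sum still held Ndn, at 137 to 168 CPM in labelled knockout islets and 70.2 to 86.0 CPM in control islets. The sum without Ndn as well was not taken, so a rise beyond these genes is not shown. By kind of product, 3 of 6 tested noncoding RNAs rose, and 3 of 23 tested coding genes rose while 1 fell. Over all tested genes, 8.73% were called higher and 5.25% lower. Of the 3 noncoding RNAs that rose, Meg3 and Mirg lie in the same cluster and H19 had few counts. With the replicate number as a block, H19 was not called while the maternally expressed coding gene Asb4 was called higher and the paternally expressed Peg3 lower, so 2 of the 6 noncoding RNAs rose. The CPM of the groups did not overlap for 9 of the 29 genes, and for 26.6% of all tested genes. The labelled knockout lay above the control for 6 of them, the same 6 that were called higher, where the background over all tested genes was 14.0%. It lay below for 3, Grb10, Igf2 and Zim1, with a background of 12.6%.

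The Dlk1-Dio3 cluster on chromosome 12 held 3 of the 6 genes that rose. Its maternal copy makes a chain of noncoding RNAs, Meg3, Rian and Mirg, which are the hosts of many microRNAs and small nucleolar RNAs. Its paternal copy makes the proteins Dlk1, Rtl1 and Dio3. In mouse and human islets the maternal RNAs are known as beta cell transcripts. All 5 tested genes had a positive log2 fold change, with a median of 0.80, against 0.0065 over all tested genes. Of the 5, 3 were called higher, where 8.73% of all tested genes were. This difference was not tested.

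Meg3, the long noncoding RNA at the head of the chain, lies at chr12:109540996-109571729 on the plus strand (mm10). It had 1077, 1243 and 1301 CPM in labelled knockout islets, against 565, 745, 793 and 774 CPM in control islets. Every labelled knockout library lay above every control library. The means were 1207 ± 116 and 719 ± 105 CPM (SD, n = 3 and 4), a log2 fold change of 0.75 (SE 0.14, edgeR adjusted p = 0.00269). A Glis3 peak, chr12:109540812-109541011, covered its start, with its midpoint 84 bp upstream. The RefSeq promoter window of Meg3 (GRCm38.p6, chr12:109540746-109541045, plus strand, 250 bases before to 50 after the start) is shown because it carries both this peak and a copy of the Glis core motif. Capitals mark the bases inside the peak.
Meg3 promoter: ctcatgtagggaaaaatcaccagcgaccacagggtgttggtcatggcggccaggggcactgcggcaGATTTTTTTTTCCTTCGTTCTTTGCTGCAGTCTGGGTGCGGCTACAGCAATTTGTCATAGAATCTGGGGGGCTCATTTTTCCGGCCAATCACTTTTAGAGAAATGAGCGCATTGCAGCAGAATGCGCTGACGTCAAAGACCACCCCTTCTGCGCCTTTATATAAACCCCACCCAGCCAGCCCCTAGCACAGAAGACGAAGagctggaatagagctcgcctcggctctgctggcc

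The letters TGGGGGG, a core of the G-rich sequences that Glis proteins are known to bind, begin at base 131 of this window and lie inside the capitals. The window held 13 CpG dinucleotides. A match is a description of the letters and does not show which bases were bound. Searched on both strands, the motif was in 9 of 41 RefSeq promoter windows of 30 imprinted genes (22.0%) and in 8.47% of all 32851 mouse windows of that length. The longer form TGGGGGGT, each copy of which also holds the shorter one, was in 3 of the 41 windows (7.32%) and in 1.53% of all windows. A gene may have several windows, so the 41 are not independent.

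Mirg, the microRNA host RNA at the far end of the chain (chr12:109734981-109749457, plus strand), followed the same direction. It had 38.6, 62.1 and 42.7 CPM in labelled knockout islets, against 20.6, 30.1, 28.5 and 30.5 CPM in control islets. The groups did not overlap, and labelled knockout replicate 2 was the highest. The log2 fold change was 0.80 (SE 0.18, edgeR adjusted p = 0.00831). With only the 4 libraries that held Xist reads the value was 0.97 with an edgeR adjusted p of 0.0887, in a range of 0.000911 to 0.0887 over all 17 alternatives.

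Rian, the snoRNA host between Meg3 and Mirg (chr12:109603945-109661711, plus strand), did not pass. It had 318, 343 and 348 CPM in labelled knockout islets, against 306, 331, 223 and 215 CPM in control islets (log2 0.32, SE 0.16, edgeR adjusted p = 0.205). Controls 1 and 2, which held Xist reads, lay within the range of the labelled knockout or just below it, and controls 3 and 4 lay well under it. The count of Rian per count of Meg3 was 0.295, 0.276 and 0.267 in labelled knockout islets, against 0.542, 0.444, 0.281 and 0.278 in control islets. The count of Mirg per count of Meg3 was 0.0359, 0.0499 and 0.0329 in labelled knockout islets, against 0.0364, 0.0404, 0.0359 and 0.0395 in control islets. The Mirg ratio overlapped between the groups and was highest in labelled knockout replicate 2, while the Rian ratio was highest in controls 1 and 2.

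Dlk1, a transmembrane protein related to the Notch ligands and known for restraining adipocyte differentiation, rose most among the tested coding genes of the set. It lies at chr12:109452823-109463336 on the plus strand. It had 29.3, 34.5 and 38.0 CPM in labelled knockout islets, against 5.92, 12.3, 4.02 and 6.99 CPM in control islets. The lowest labelled knockout library lay above the highest control library. The means were 33.96 ± 4.38 and 7.30 ± 3.54 CPM (SD, n = 3 and 4), a log2 fold change of 2.19 (SE 0.29, edgeR adjusted p = 0.000291). The nearest Glis3 peak, chr12:109450091-109450290, had its midpoint 2632 bp upstream of the start. The count of Dlk1 per count of Meg3 was 0.0272, 0.0278 and 0.0292 in labelled knockout islets, against 0.0105, 0.0165, 0.00507 and 0.00903 in control islets. These ratios did not overlap between the groups, and all 3 of the labelled knockout were the higher ones.

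Rtl1, a retrotransposon-derived protein known from the mouse placenta, had 2.23, 1.43 and 2.30 CPM in labelled knockout islets, against 0.836, 1.48, 0.791 and 0.622 CPM in control islets (log2 1.06, SE 0.53, edgeR adjusted p = 0.213). The groups overlapped through control 2. Dio3, the deiodinase that inactivates thyroid hormone, had 1 count in all 7 libraries and was not tested. A further peak, chr12:109580345-109580544, lay between Meg3 and Rian, 23500 bp upstream of the Rian start. No peak lay nearer to Mirg than 154536 bp.

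**Figure D2:**
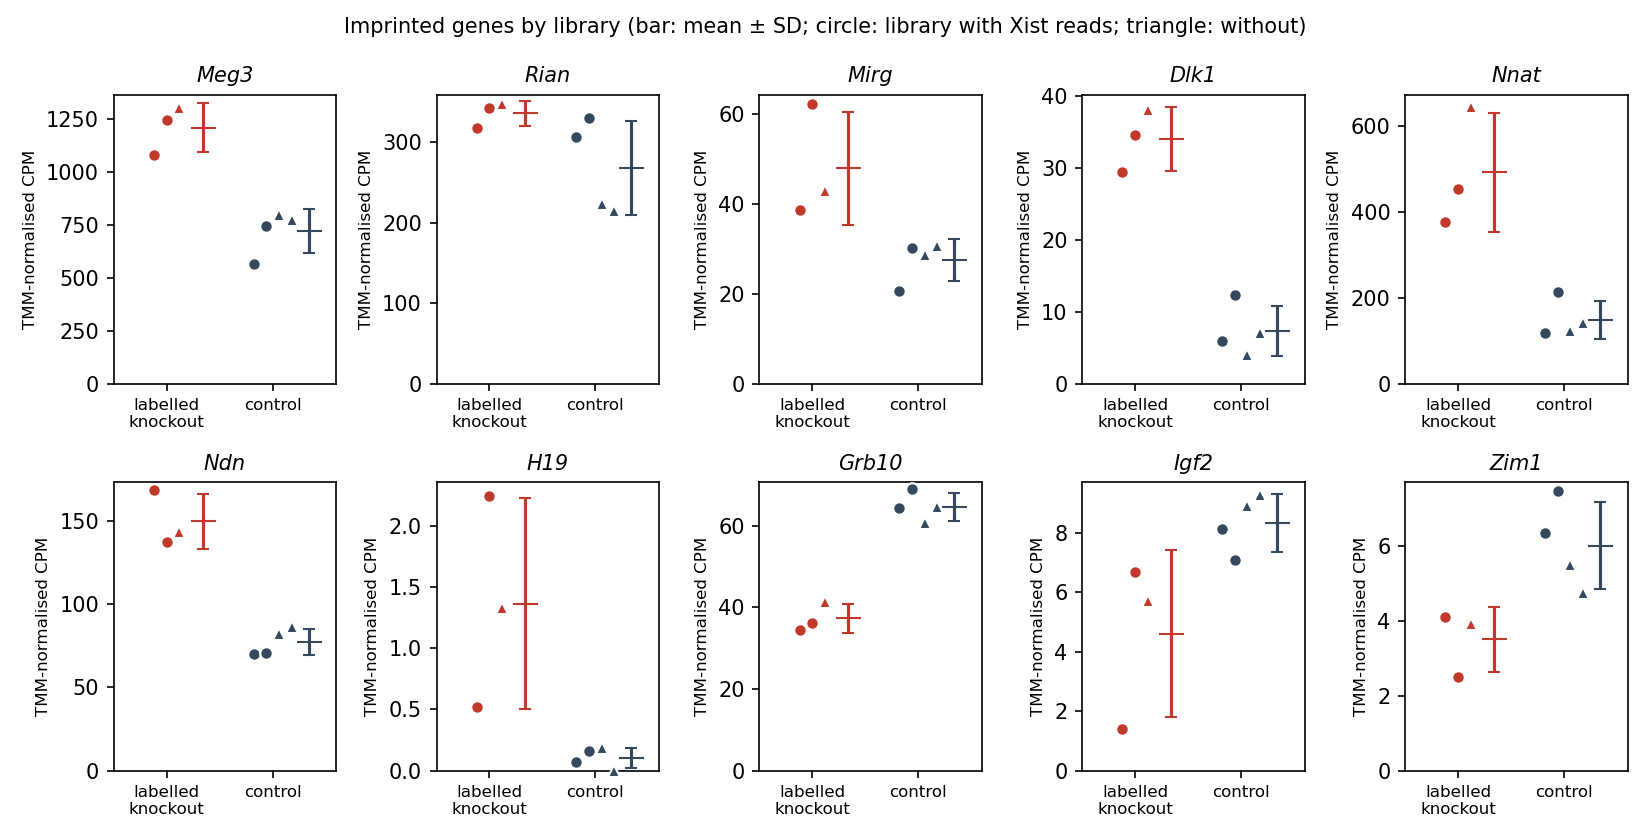
TMM-normalised CPM (y axis, linear from 0) of 10 imprinted genes in 3 labelled knockout libraries (red) and 4 control libraries (dark blue), with the mean and SD beside the points. Circles are libraries with Xist reads and triangles those without. Rian is the panel where the groups come close, with 318 to 348 CPM in the labelled knockout and 215 to 331 CPM in the control.

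Of the growth pair H19 and Igf2 on chromosome 7, H19 rose and Igf2 did not pass the test. H19 is a maternally expressed long noncoding RNA that is abundant in fetal tissue and falls after birth. It lies at chr7:142575530-142578146 on the minus strand. It had 7, 52 and 30 counts in labelled knockout islets, against 2, 8, 3 and 0 counts in control islets, or 0.52, 2.25 and 1.33 CPM against 0.0697, 0.156, 0.183 and 0 CPM. The groups did not overlap, and 3 counts corresponded to 0.13 to 0.223 CPM in labelled knockout libraries and 0.0583 to 0.183 CPM in control libraries. The log2 fold change was 3.67 (SE 0.91, edgeR adjusted p = 0.0149). This call rested on few counts. The edgeR adjusted p was 0.0756 (log2 3.22) with the replicate number as a block, 0.0779 without labelled knockout replicate 2 and 0.142 with only the libraries holding Xist reads, in a range of 0.000755 to 0.142 over 16 alternatives.

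Igf2, the paternally expressed insulin-like growth factor of the same cluster (chr7:142650768-142666816, minus strand), had 1.41, 6.70 and 5.71 CPM in labelled knockout islets, against 8.12, 7.08, 8.89 and 9.28 CPM in control islets. All 3 labelled knockout libraries lay below all 4 control libraries, replicate 1 far below. The difference did not pass (log2 -0.83, SE 0.38, edgeR adjusted p = 0.175). A Glis3 peak lay inside the gene, 7876 bp past the 5′ end of its span, just inside the 10 kb window used here for nearness. The whole peak fell in the RefSeq promoter window of an internal Igf2 start (GRCm38.p6, chr7:142658755-142659054, minus strand), shown because an internal start is where the binding lay. Capitals mark the bases inside the peak.
Igf2 internal promoter: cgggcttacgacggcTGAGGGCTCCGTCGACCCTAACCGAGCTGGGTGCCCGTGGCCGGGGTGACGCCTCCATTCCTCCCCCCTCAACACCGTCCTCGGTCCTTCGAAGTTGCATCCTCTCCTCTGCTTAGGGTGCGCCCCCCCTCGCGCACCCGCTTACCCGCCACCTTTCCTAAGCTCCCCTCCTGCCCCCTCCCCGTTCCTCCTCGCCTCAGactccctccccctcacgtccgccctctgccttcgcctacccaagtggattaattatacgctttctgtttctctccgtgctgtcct

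This window held 24 CpG dinucleotides and no copy of TGGGGGG. The window at the 5′ end of the Igf2 span held 2 CpG dinucleotides and no peak.

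Genes that act on insulin-like growth factor signalling gave one further call. Grb10, an adaptor protein that binds the insulin and insulin-like growth factor receptors and damps their signalling, was the only one of the 29 tested imprinted genes that fell. It lies at chr11:11930499-12037420 on the minus strand and is expressed from the maternal copy in most mouse tissues. It had 34.5, 36.2 and 41.3 CPM in labelled knockout islets, against 64.3, 69.0, 60.8 and 64.7 CPM in control islets. The libraries of each group lay close together and the groups did not overlap. The log2 fold change was -0.79 (SE 0.11, edgeR adjusted p = 0.00038), and the adjusted p stayed at or under 0.0122 over 17 alternatives. It held 3 Glis3 peaks, the nearest with its midpoint 157 bp inside the 5′ end.

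Igf2r, the receptor that clears Igf2 from the cell surface, had 60.4, 61.6 and 53.5 CPM in labelled knockout islets, against 55.2, 60.7, 51.1 and 46.2 CPM in control islets (log2 0.13, SE 0.12, edgeR adjusted p = 0.53). Airn, the paternal noncoding RNA that silences Igf2r in the mouse, had 4.75, 6.82 and 6.33 CPM in labelled knockout islets, against 5.43, 5.601, 6.88 and 8.52 CPM in control islets (log2 -0.14, SE 0.26, edgeR adjusted p = 0.788). Both overlapped between groups. Their spans share 28396 bp on opposite strands. The sources used here do not give the strand option of the counting, so how far reads in that stretch were mixed is not known. Igf2r and Airn each held 4 peaks in the span, and peaks in the shared stretch, such as chr17:12741298-12741497, count for both.

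Cdkn1c, a maternally expressed inhibitor of cyclin-dependent kinases known for restraining beta cell division, had 2.60, 1.17 and 3.14 CPM in labelled knockout islets, against 6.48, 5.76, 2.62 and 5.31 CPM in control islets. The groups overlapped through control 3. The difference did not pass with edgeR (log2 -1.14, SE 0.41, adjusted p = 0.085), while DESeq2 gave an adjusted p of 0.04 and edgeR without control 3 one of 0.0443, in a range of 0.04 to 0.203 over 17 alternatives. Plagl1, a zinc finger factor of growth control whose overexpression is known from human transient neonatal diabetes, had 11.95, 14.9 and 14.5 CPM in labelled knockout islets, against 10.8, 10.9, 12.5 and 14.2 CPM in control islets (log2 0.19, SE 0.18, edgeR adjusted p = 0.53). The groups overlapped. Among the 36 genes Plagl1 had the peak nearest to its start, with the midpoint 1 bp inside. Its RefSeq promoter window (GRCm38.p6, chr10:13090582-13090881, plus strand) is shown as the case of a centred peak without a change in level that passed the test. Capitals mark the bases inside the peak.
Plagl1 promoter: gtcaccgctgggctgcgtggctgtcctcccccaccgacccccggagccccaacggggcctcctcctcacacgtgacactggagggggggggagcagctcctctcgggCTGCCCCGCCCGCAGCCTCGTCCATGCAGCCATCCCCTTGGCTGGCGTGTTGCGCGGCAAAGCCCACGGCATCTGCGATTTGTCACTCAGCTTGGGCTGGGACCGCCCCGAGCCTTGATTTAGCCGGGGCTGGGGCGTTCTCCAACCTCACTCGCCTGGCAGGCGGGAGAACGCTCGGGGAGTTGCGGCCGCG

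This window held 26 CpG dinucleotides and no copy of TGGGGGG. The runs of G in it are not preceded by T in the form searched.

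Outside these clusters the brain-rich genes Nnat and Ndn rose. Nnat, neuronatin, is a small membrane protein of the endoplasmic reticulum that is known to aid insulin processing in mouse beta cells. It lies at chr2:157560078-157562525 on the plus strand. It had 376, 454 and 645 CPM in labelled knockout islets, against 118, 214, 123 and 140.1 CPM in control islets. Every labelled knockout library lay above every control library, and control 2 was the highest of the controls. The means were 492 ± 138 and 149 ± 44.3 CPM (SD, n = 3 and 4), a log2 fold change of 1.73 (SE 0.22, edgeR adjusted p = 0.000244).

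Nnat sits inside the span of Blcap, a maternally biased gene of the opposite strand. Blcap had 56.2, 63.7 and 66.7 CPM in labelled knockout islets, against 56.1, 57.8, 53.1 and 50.4 CPM in control islets (log2 0.19, SE 0.11, edgeR adjusted p = 0.282). Its groups overlapped. Nnat lies whole within the span of Blcap, and the strand option and the annotation of the counting are not given. How far reads of the stretch they share were mixed is therefore not known. The peak nearest to Nnat lay 6403 bp downstream of its start, which is 120 bp upstream of the start of Blcap. The RefSeq promoter window of Blcap (GRCm38.p6, chr2:157566312-157566611, minus strand) is shown because the peak within 10 kb of Nnat lies at the start of this neighbour. Farther out, other peaks lay 17378 and 47210 bp upstream of Nnat. Capitals mark the bases inside the peak.
Blcap promoter: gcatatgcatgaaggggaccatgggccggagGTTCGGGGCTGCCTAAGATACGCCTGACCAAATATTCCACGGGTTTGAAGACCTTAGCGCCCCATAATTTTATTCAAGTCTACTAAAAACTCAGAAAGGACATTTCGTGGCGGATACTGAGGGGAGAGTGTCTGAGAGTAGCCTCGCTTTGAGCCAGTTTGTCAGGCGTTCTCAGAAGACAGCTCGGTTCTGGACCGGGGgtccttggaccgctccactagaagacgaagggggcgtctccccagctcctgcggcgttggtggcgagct

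This window held 17 CpG dinucleotides and no copy of TGGGGGG. The window at the Nnat start also held 17 CpG dinucleotides, had no peak, and held 1 copy of TGGGGGG on its minus strand.

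Ndn, necdin, is a paternally expressed growth suppressor of the Prader-Willi region, at chr7:62348277-62349927 on the plus strand. It had 168, 137 and 143 CPM in labelled knockout islets, against 70.2, 70.4, 82.0 and 86.0 CPM in control islets. The groups did not overlap and no library stood apart. The log2 fold change was 0.96 (SE 0.12, edgeR adjusted p = 0.000153), and no alternative gave an adjusted p above 0.00833. The nearest peak was 269551 bp away. Ube3a, the ubiquitin ligase at the other end of the region, maternally expressed in neurons, had 27.8, 30.2 and 29.7 CPM in labelled knockout islets, against 25.7, 25.5, 20.9 and 28.9 CPM in control islets (log2 0.21, SE 0.14, edgeR adjusted p = 0.36).

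The other genes of the Prader-Willi region were at or near 0. Magel2, a paralogue of Ndn, had 1, 36 and 2 counts in labelled knockout islets, against 4, 10, 0 and 0 counts in control islets. Mkrn3, a ring finger protein, had 0, 18 and 21 counts in labelled knockout islets, against 8, 20, 0 and 7 counts in control islets. Peg12 had 0, 16 and 0 counts in labelled knockout islets and 0 counts in all 4 control islets. Snrpn, a spliceosomal protein, had 0, 1 and 0 counts in labelled knockout islets, against 2, 0, 0 and 0 counts in control islets. Its span overlaps that of Snhg14 over 467683 bp and that of Snurf over 22705 bp, both on the same strand, so how its reads were shared is uncertain. Snurf had 0 counts in both groups. The low counts of Snrpn therefore do not show that the gene was silent. A pair of placental growth genes of the Kcnq1 cluster was as low. Phlda2 had 0, 23 and 0 counts in labelled knockout islets, against 3, 0, 7 and 0 counts in control islets. Ascl2, a basic helix-loop-helix factor, had 0, 10 and 2 counts in labelled knockout islets, against 1, 0, 3 and 0 counts in control islets. In 4 of these genes (Magel2, Peg12, Phlda2 and Ascl2) labelled knockout replicate 2 had the highest level. That library also had the highest summed acinar markers, 11389 CPM, and its part in these counts was not tested.

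**Figure D3:**
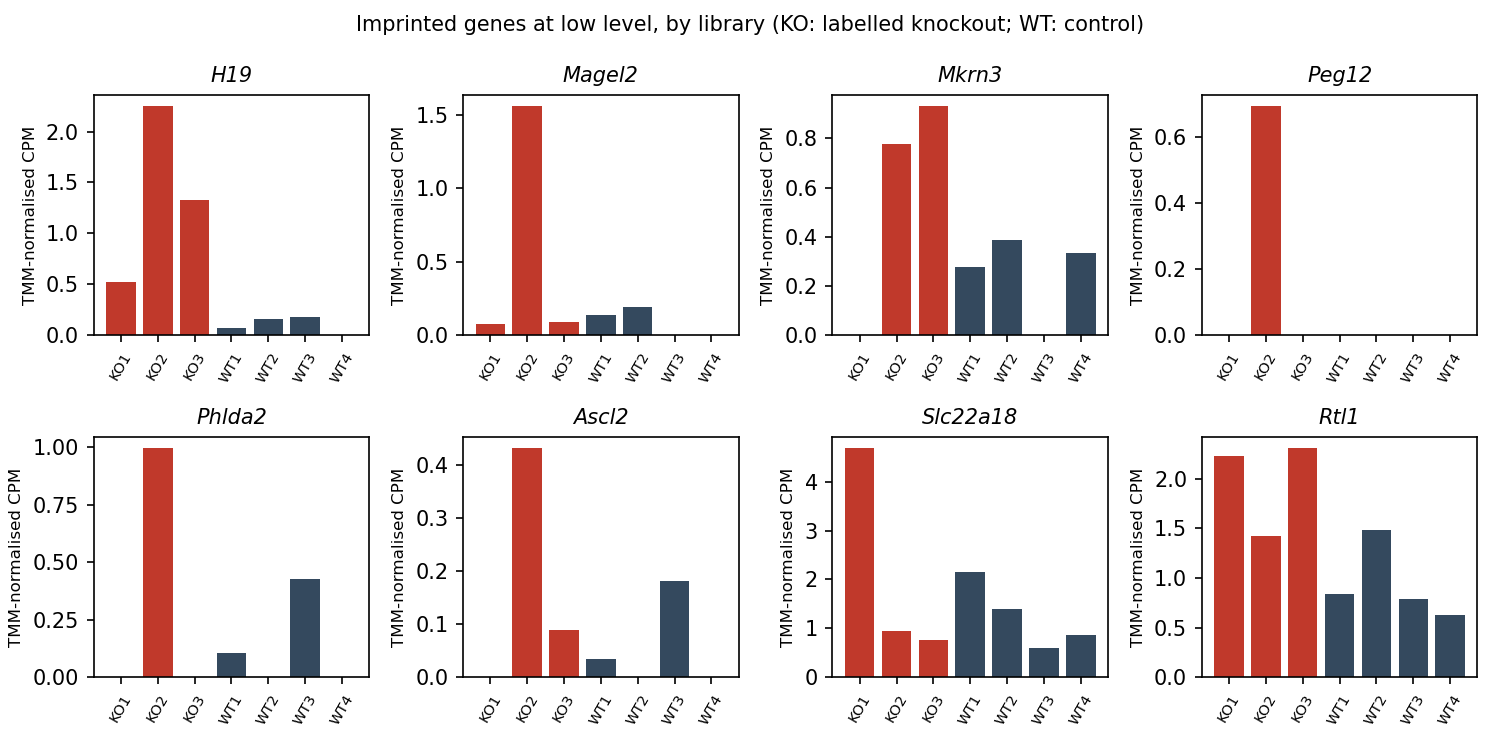
TMM-normalised CPM (y axis, linear from 0) of 8 imprinted genes at low level in each library, labelled knockout (KO1 to KO3, red) and control (WT1 to WT4, dark blue). Peg12 shows reads in 1 library alone, Slc22a18 is highest in KO1, and H19 is above all controls in each labelled knockout library.

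In the Kcnq1 cluster 3 genes were tested and 0 passed. Kcnq1ot1, the paternal noncoding RNA antisense to Kcnq1, had 31.0, 43.5 and 45.5 CPM in labelled knockout islets, against 25.6, 33.9, 41.3 and 32.7 CPM in control islets (log2 0.27, SE 0.17, edgeR adjusted p = 0.344). It lies whole within the span of Kcnq1 on the other strand. Kcnq1 averaged 5.19 CPM in labelled knockout islets and 4.34 CPM in control islets. The strand option and the annotation of the counting are not given, so how far their reads were mixed is not known. The same limit holds for Zrsr1 within Commd1, Nap1l5 within Herc3 and the stretch shared by Mest and Copg2. Slc22a18, a transporter of the organic cation family, had 4.68, 0.95 and 0.753 CPM in labelled knockout islets, against 2.16, 1.40, 0.609 and 0.861 CPM in control islets. Labelled knockout replicate 1 alone stood above the controls, and without it the log2 fold change was -0.58 in place of 0.70 (SE 0.69, edgeR adjusted p = 0.555).

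The Peg3 cluster also gave 0 calls in 3 tested genes. Peg3, a zinc finger protein of the paternal copy, had 46.0, 88.6 and 56.2 CPM in labelled knockout islets, against 105.9, 133, 84.0 and 56.7 CPM in control islets (log2 -0.58, SE 0.32, edgeR adjusted p = 0.281). The groups overlapped, and with the replicate number as a block the log2 fold change was -0.79 with an edgeR adjusted p of 0.00203, in a range of 0.00203 to 0.605 over 17 alternatives. Zim1, a maternally expressed zinc finger gene beside it, had 4.08, 2.51 and 3.90 CPM in labelled knockout islets, against 6.34, 7.45, 5.48 and 4.74 CPM in control islets. Its groups did not overlap, but the difference did not pass (log2 -0.79, SE 0.30, edgeR adjusted p = 0.0969). Usp29, a ubiquitin protease read from the start region shared with Peg3, had 6.53, 9.81 and 6.69 CPM in labelled knockout islets, against 7.56, 6.36, 6.82 and 5.65 CPM in control islets (log2 0.22, SE 0.24, edgeR adjusted p = 0.597).

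None of the 8 tested genes of the remaining clusters passed. Mest, a hydrolase-like protein known for fat cell growth, had 6.997 to 10.6 CPM in labelled knockout islets and 8.71 to 11.5 CPM in control islets. Copg2, a coatomer subunit whose 3′ end overlaps Mest by 913 bp, had 27.8, 18.1 and 22.3 CPM in labelled knockout islets, against 35.8, 28.2, 23.8 and 26.3 CPM in control islets (log2 -0.34, SE 0.18, edgeR adjusted p = 0.245). Peg10, a retrotransposon-derived gene, had 16.8 to 20.7 CPM in labelled knockout islets and 15.2 to 17.9 CPM in control islets. Sgce, the epsilon subunit of sarcoglycan, reads from a start beside that of Peg10 and had 13.7 to 20.3 CPM in labelled knockout islets and 17.3 to 26.8 CPM in control islets. Both overlapped between groups.

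Asb4, a substrate receptor of ubiquitin ligases near Peg10, had 6.31, 11.1 and 7.93 CPM in labelled knockout islets, against 5.64, 3.11, 2.68 and 6.75 CPM in control islets (log2 0.90, SE 0.34, edgeR adjusted p = 0.0959). It overlapped through control 4 and passed under 3 alternatives, with adjusted p of 0.0326 by library size alone in edgeR, 0.0404 by limma-voom and 0.0418 with the replicate block in edgeR, in a range of 0.0326 to 0.291 over 17. Nap1l5, a nucleosome assembly protein-like gene inside Herc3, had 63.5, 55.2 and 56.9 CPM in labelled knockout islets, against 63.5, 45.1, 34.2 and 36.9 CPM in control islets (log2 0.38, SE 0.18, edgeR adjusted p = 0.192). Control 1 lay level with the highest labelled knockout library, and without it the edgeR adjusted p was 0.0122, in a range of 0.0122 to 0.788 over 17 alternatives. Impact, a regulator of translation, had 43.8, 31.4 and 46.5 CPM in labelled knockout islets, against 66.9, 55.1, 43.6 and 44.6 CPM in control islets (log2 -0.38, SE 0.17, edgeR adjusted p = 0.172). Zrsr1, a retrogene related to a splicing factor and placed inside Commd1, had 19.2, 17.9 and 24.6 CPM in labelled knockout islets, against 28.4, 21.0, 18.8 and 21.9 CPM in control islets (log2 -0.13, SE 0.18, edgeR adjusted p = 0.677).

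Glis3 peaks lay near both changed and unchanged imprinted genes. Of the 36 genes, 19 (52.8%) had a peak midpoint within 10 kb of the 5′ end of the gene span, where the background over 24623 genes was 54.9%. Of the 29 tested genes 65.5% had one, against 80.5% of all tested genes. A peak lay inside the span of 15 of the 36 (41.7%), with a background of 39.2%. These shares are near or below the background and give no result about the set. Of the 7 called genes, 4 had a peak within 10 kb (Meg3, Dlk1, Nnat and Grb10) and 3 did not (Mirg, H19 and Ndn). Just outside the window lay Phlda2, at 10012 bp.

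**Figure D4:**
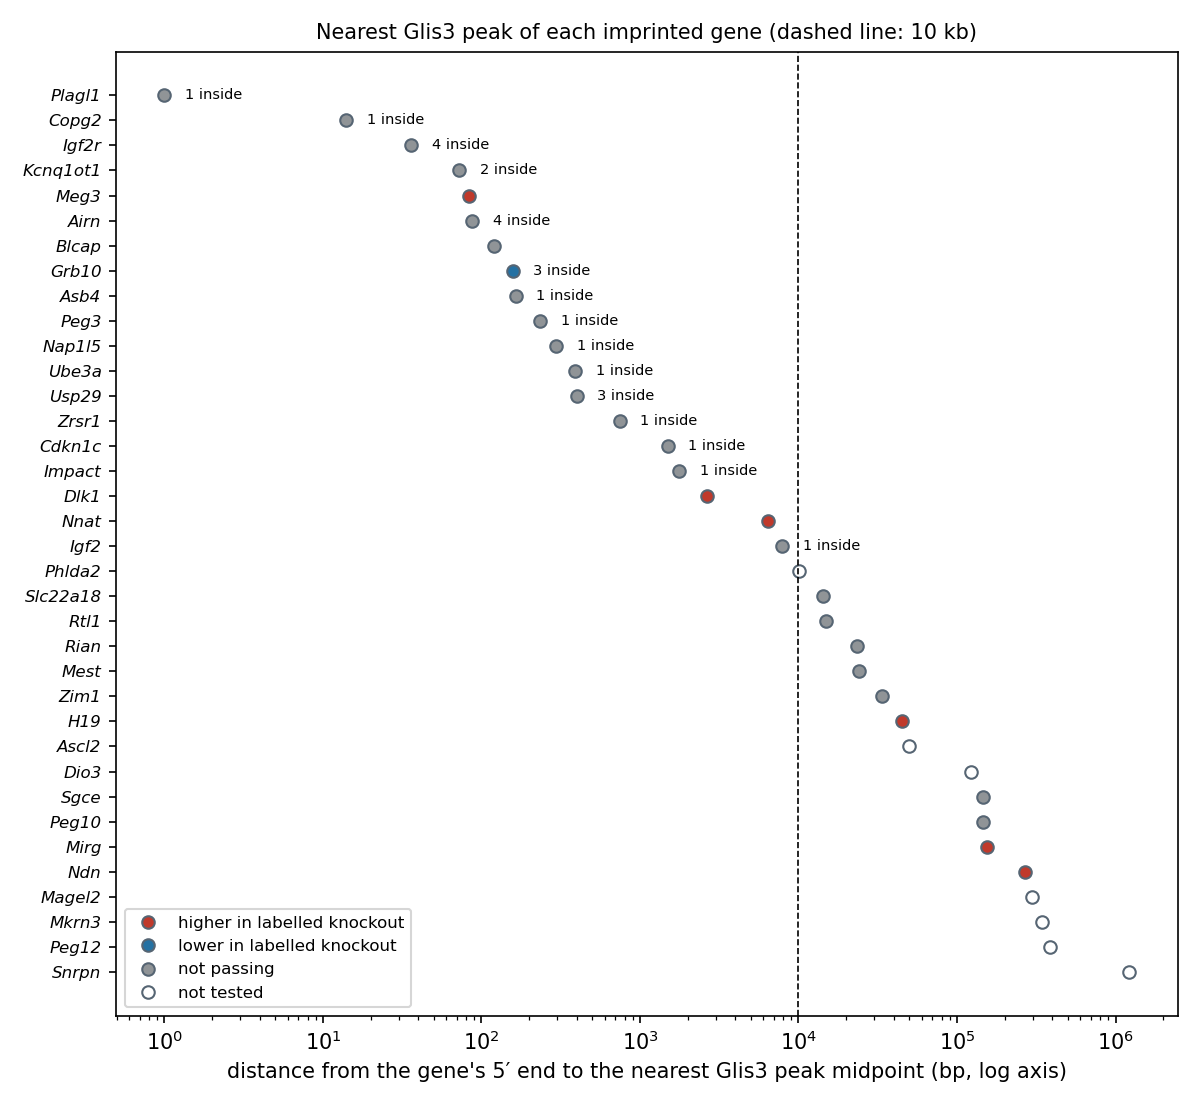
Distance in bp on a log axis (x axis) from the 5′ end of each of the 36 imprinted genes to the nearest Glis3 peak midpoint, coloured by the test of expression. The dashed line is 10 kb, which 19 genes fall within, and the number of peaks inside the gene is written beside the point. Called genes lie at distances from 84 bp (Meg3) to 269551 bp (Ndn).

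Within 1 kb of the start, 14 of the 36 imprinted genes (38.9%) had a peak, where the background over all genes was 44.8%. Among tested genes the share was 48.3%, against 71.2% of all tested genes, so both shares lay below the background. The 14 included Igf2r at 36 bp, Kcnq1ot1 at 72 bp, Airn at 87 bp, Asb4 at 164 bp, Peg3 at 235 bp, Nap1l5 at 296 bp, Ube3a at 391 bp and Usp29 at 399 bp. The peak of Peg3 and that of Usp29 are the same one, chr7:6730084-6730283. The starts of Meg3, Peg3, Plagl1, Airn, Kcnq1ot1 and Nap1l5 are known to lie in regions that carry methylation on one parental copy. Among 41 promoter windows, 8 were overlapped by a peak, those of Meg3, Blcap, Igf2, Plagl1, Copg2, Igf2r, Kcnq1ot1 and Airn. These 8 windows held a median of 20.5 CpG dinucleotides (3 to 34), the other 33 a median of 10 (0 to 45), and all 32851 windows a median of 7 with quartiles of 3 and 20. Of the 8 windows with a peak, the Meg3 window was the only one that held TGGGGGG. The peaks carried no score and came from older mice of another genotype, so the height of binding was not compared.

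The calls were set beside the values within each Xist group, which holds 2 labelled knockout and 2 control libraries with reads, and 1 and 2 libraries without. Meg3 averaged 1160 CPM in the labelled knockout and 655 CPM in the control with Xist reads, and 1301 CPM and 783 CPM without. Dlk1 averaged 31.9 CPM in the labelled knockout and 9.10 CPM in the control with reads, and 38.0 CPM and 5.50 CPM without. Nnat averaged 415 CPM in the labelled knockout and 166 CPM in the control with reads, and 645 CPM and 131 CPM without. Ndn, Mirg and H19 were likewise higher, and Grb10 lower, in the labelled knockout in both groups. Rian averaged 330 CPM in the labelled knockout and 319 CPM in the control with reads, and 348 CPM and 219 CPM without. Fitted on the 4 libraries with reads alone, the edgeR adjusted p was 0.0418 for Meg3, 0.0281 for Dlk1, 0.0379 for Nnat, 0.00833 for Ndn and 0.0122 for Grb10. In the same fit Mirg (0.0887) and H19 (0.142) did not pass.

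Markers of other cells were also summed, and only the stromal and duct sums did not overlap between groups. The summed level of 8 stromal markers was 430 to 556 CPM in labelled knockout islets and 294 to 380 CPM in control islets. Of the 8, 1 passed the test, Rgs5, which averaged 207 CPM in labelled knockout islets and 136 CPM in control islets. Pdgfra had 0 counts in labelled knockout replicate 2. The 8 duct markers summed to 822 to 995 CPM in labelled knockout islets and 271 to 327 CPM in control islets. Of 7 tested duct genes 1 was called higher, Spp1, which averaged 598 CPM in labelled knockout islets and 30.5 CPM in control islets. Rgs5 was the only 1 of 8 stromal markers whose labelled knockout libraries all lay above the controls. Among 7 tested duct markers this held for 2, Spp1 and Tff2, and over all tested genes for 14.0%. Spp1 alone had 447 to 694 CPM in labelled knockout libraries, most of the duct sum. The sums without Rgs5 and Spp1 were not taken, so the separated sums are not read as more stromal or duct cells. The 12 acinar markers summed to 2050 to 11389 CPM in labelled knockout islets and 646 to 4059 CPM in control islets, and 0 of 11 tested passed. The 8 endothelial markers summed to 670 to 834 CPM in labelled knockout islets and 620 to 687 CPM in control islets, with 0 called. The 8 immune markers summed to 69.6 to 113 CPM in labelled knockout islets and 55.5 to 83.3 CPM in control islets. The 8 Schwann and neuronal markers summed to 33.9 to 60 CPM in labelled knockout islets and 35.7 to 51.6 CPM in control islets, and 0 passed in either list. Of the islet cell markers, 5 of 8 beta cell genes fell and 1 rose, 4 of 8 alpha cell genes fell and 2 rose, and 1 of 8 delta cell genes fell and 3 rose. The part of these differences in the values of Dlk1, H19, Meg3, Nnat and the other imprinted genes was not tested.

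Further genes listed as imprinted, outside the set of 36, came from a list of 42, of which 41 were in the table. Whether they are imprinted in islets was not measured. Of the 34 that were tested, 9 rose (26.5%), 1 fell (2.94%) and 24 did not pass. The shares over all tested genes were 8.73% higher and 5.25% lower. The difference in shares was not tested, and this list too was chosen with earlier results of these data known. The median log2 fold change was 0.15. Th, tyrosine hydroxylase of catecholamine synthesis, had 146, 173 and 183 CPM in labelled knockout islets, against 41.8, 48.8, 34.9 and 49.9 CPM in control islets (log2 1.93, SE 0.14, edgeR adjusted p = 1.31e-06). Pon3, a paraoxonase near Peg10, averaged 53.6 ± 10.1 CPM in labelled knockout islets and 10.5 ± 2.44 CPM in control islets (SD, n = 3 and 4), a log2 fold change of 2.37. Its neighbour Pon2 had a log2 fold change of 1.47 and Inpp5f, an inositol phosphatase, one of 1.43. Trpm5, a cation channel known for glucose-stimulated insulin secretion in mice, fell to 31.0 ± 15.4 CPM in labelled knockout islets, against 154 ± 20 CPM in control islets (log2 -2.31, SE 0.28, edgeR adjusted p = 0.000351). None of these 5 genes overlapped between groups.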

How the data were processed

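Islet RNA of 3 labelled knockout and 4 control mice and 1 Glis3 peak list were used. Expression came as whole-number counts for each gene, deposited by the authors with no normalisation, and the gene spans were in mm10 per the file headers. The submitters' processing notes name STAR 2.5 and featureCounts 1.5.0-p1, and for binding Bowtie 1.2 and HOMER 4.9.1. Their settings, the strand option and the annotation are not given in the sources used here. Of 25611 rows, 988 repeated a symbol. The 21254 peaks were intervals of 200 bp, deposited without a score. The input library was not analysed here.

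Genes passing filterByExpr were tested in edgeR 4.0.16 under R 4.3.3, with TMM factors, the quasi-likelihood F test, robust dispersions and Benjamini-Hochberg adjustment over 14529 genes. The SE was taken as the size of the log2 fold change over the square root of F. No 2 libraries of a group were copies (chi-square per degree of freedom 23.4 to 95.4). Floors of 3 counts cover counting error only. The test was first checked on simulated data. A peak was placed by the distance of its midpoint from the start of the gene span. Promoter windows came from RefSeq (GRCm38.p6), with an entry for 30 of the 36 genes.

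Alternatives were RLE factors, library size alone, other filters on low counts, DESeq2 1.42.0, limma-voom 3.58.1, a replicate block, leaving out the 10 most abundant genes or each library, and other peak windows. An Xist term, and a fit on only the 4 libraries that hold its reads, were added after seeing the data. The deviations of same-numbered libraries from their group means correlated at 0.173, 0.117 and 0.117, all above 0.1, so the numbers were taken to pair the libraries. Labelled knockout 3 and control 4, which share no number, correlated at 0.157, so the pairing is uncertain. The reported test did not use it. In the block fit control 4, which has no labelled knockout library of its number, does not inform the difference between groups. The pairing comes from the data, the labels give no shared batch, and Xist reads ran with the number.

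Members and lists were chosen with earlier results of these data known. Every one of the 36 genes is named. Values of every library are given for genes that passed the test, did not overlap, or had a Glis3 peak within 10 kb or inside the gene. Of other lists up to 4 called genes with the smallest p are named, and genes that stood alone in a direction were added after their values were seen.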

Additional observations from a re-analysis of the deposited data

Results flagged for a closer look

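Snrpn in the control libraries had 1 library far from the others. Control 1 had 0.0697 CPM, from 2 counts, and the other 3 controls were at 0. Chance flags about 1 in 20 groups in this way, and 2 counts are below the floor of 3 counts.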

How the results depend on the processing

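Across 17 alternatives, the log2 fold change of the tested imprinted genes and Glis3 kept its direction and side of the threshold in 484 of 509 gene and setting pairs, passed newly in 7, no longer passed in 10 and changed sign in 8. Meg3, Dlk1, Nnat, Ndn and Grb10 passed in all. The imprinted genes that fell numbered 2 under DESeq2 and 2 with the replicate block, in place of 1. The replicate block ended the calls of H19 and Glis3, added that of Peg3 and Asb4, and changed no other call of these genes. Leaving out 1 library gave 1 to 2 that fell and 5 to 7 that rose, and over all genes 541 to 825 that fell and 934 to 1142 that rose. With library size alone the median log2 fold change of all genes was 0.175, against 0.0065 with TMM factors, and 324 fell and 1854 rose, in place of 763 and 1268. It also turned Airn to 0.056, Mest to 0.086 and Zrsr1 to 0.017, while relative to that median they were at -0.12, -0.089 and -0.16. With only the 4 libraries holding Xist reads, 314 fell and 734 rose, and Airn was at 0.053. Slc22a18 turned to -0.020 by limma-voom and, over the fits that left out 1 library, ran from -0.58 (without labelled knockout replicate 1) to 1.09. Mest ran from -0.21 to 0.052 in those fits, above 0 without labelled knockout replicate 3 and, at 0.012, without control 1. The cause was not tested. The call of Glis3 did not pass in 6 of 17 alternatives, with adjusted p of 0.00948 to 0.372. H19 was not tested where 1 CPM or more was required in 3 libraries. Magel2, Mkrn3, Peg12, Snrpn, Phlda2, Ascl2 and Dio3 had too few counts to pass the filter of the reported test.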

Other observations

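Factors that write or protect imprints, a list of 20 genes, had 18 tested, of which 2 fell, 1 rose and 15 did not pass. The share called was 16.7%, near the 14.0% over all tested genes. Dnmt3a, a DNA methyltransferase that sets imprints in germ cells, averaged 56.4 ± 8.70 CPM in labelled knockout islets and 79.9 ± 10.8 CPM in control islets (SD, n = 3 and 4), with a log2 fold change of -0.50 (SE 0.14, edgeR adjusted p = 0.0274). Ctcf, the insulator protein that binds the H19 control region, averaged 36.9 ± 3.27 CPM in labelled knockout islets and 50.4 ± 4.905 CPM in control islets (log2 -0.45, SE 0.12, edgeR adjusted p = 0.0264). Ctcfl, its paralogue known from the testis, had 3.86, 4.15 and 2.66 CPM in labelled knockout islets, against 0.0697, 0.214, 0.365 and 0.0957 CPM in control islets (log2 4.27, SE 0.62, edgeR adjusted p = 0.000392). Its groups did not overlap. DNA methylation was not measured.

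Of 15 partners of insulin-like growth factor and Notch signalling, 2 fell, 0 rose and 13 did not pass. The share called was 13.3%, again near the 14.0% over all tested genes. Igf1r, the receptor bound by Grb10, had 26.6, 35.8 and 31.4 CPM in labelled knockout islets, against 42.7, 49.4, 56.1 and 52.8 CPM in control islets (log2 -0.68, SE 0.14, edgeR adjusted p = 0.00476). Igf2bp2, an RNA-binding protein of Igf2 transcripts, had 9.65, 8.86 and 7.53 CPM in labelled knockout islets, against 9.47, 18.1, 20.3 and 16.1 CPM in control islets (log2 -0.88, SE 0.24, edgeR adjusted p = 0.0266), with an overlap through control 1.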
